A study of Homo sapiens with 18 samples.

Results

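Ribosome biogenesis factors are the proteins that make, fold, cut and assemble ribosomal RNA and ribosomal proteins into ribosomes without being part of the finished particle. A list of 41 human genes of this kind was followed in 2 cell lines grown from human colon cancers, HT-29 and HCT116. Of these 41 genes, 34 had a value on the arrays, out of 33616 genes in all, each taken from the transcript assigned to that gene alone with the highest mean signal. NOP56, WDR43, BOP1 and PPAN had only a transcript assigned to several genes, and GNL3, EBNA1BP2 and DDX18 had none under their own name, so these 7 were not analysed. The members were picked by name with earlier results of these data known, not by their values.

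RNA came from 18 Affymetrix arrays, 3 for each of 6 groups. HT-29 cells were untreated or were treated with ER for 4 h or 24 h, and HCT116 cells were untreated or treated in the same way. ER is erastin, a small molecule that blocks cystine uptake and triggers ferroptosis, an iron-dependent cell death with oxidised lipids. The dose given in the methods is 2.5 µM. Both times share the single untreated group of their cell line. For it, neither a vehicle nor a time in culture is stated, so a change after ER cannot be told apart from either.

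Ribosomes are built in the nucleolus, where RNA polymerase I copies a long precursor RNA. The small subunit processome folds and cuts the part that becomes the RNA of the small (40S) subunit, while other factors guide the large (60S) subunit, and small nucleolar RNA-protein particles of the box C/D class methylate the RNA on the way. Growing tumour cells make many ribosomes, and genes of these factors are well-known targets of the transcription factor MYC, which binds the E-box CACGTG.

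Right at the start of several member genes such an E-box is present, and 5 of them whose signals are described further on are shown for that reason. The sequences are from RefSeq, build GRCh38.p14, on the strand of the gene, and run over the 100 bases before and the first 25 bases after the annotated start. The capitals mark the E-box. MRTO4 (chr1:19251705-19251829, plus strand), PNO1 (chr2:68157788-68157912, plus strand), PES1 (chr22:30591886-30592010, minus strand), NOP14 (chr4:2963382-2963506, minus strand) and RRP9 (chr3:51941880-51942004, minus strand) read as follows.
MRTO4: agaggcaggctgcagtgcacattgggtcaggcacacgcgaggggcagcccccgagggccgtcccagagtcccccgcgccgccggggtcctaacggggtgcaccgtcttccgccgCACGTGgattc
PNO1: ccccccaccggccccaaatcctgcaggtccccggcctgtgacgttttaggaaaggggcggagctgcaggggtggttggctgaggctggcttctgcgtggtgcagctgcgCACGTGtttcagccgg
PES1: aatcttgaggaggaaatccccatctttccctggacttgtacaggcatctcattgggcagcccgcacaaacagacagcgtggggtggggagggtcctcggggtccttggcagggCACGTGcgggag
NOP14: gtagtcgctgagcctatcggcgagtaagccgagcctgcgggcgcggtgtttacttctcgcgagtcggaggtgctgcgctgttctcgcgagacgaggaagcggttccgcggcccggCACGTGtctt
RRP9: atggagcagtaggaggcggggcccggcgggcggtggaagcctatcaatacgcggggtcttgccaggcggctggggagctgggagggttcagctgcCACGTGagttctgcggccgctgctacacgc

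Promoters of 300 bases, 250 before the start and 50 after it, could be read for 33 of the 41 members, all except BOP1, DDX18, DDX52, NOLC1, NOP58, RRP12, RRP1B and RRS1. CACGTG, which reads the same on both strands, was in 16 of the 33 (48.48%) and in 2030 of 27305 promoters of all genes (7.43%). It was also in 27 of 96 promoters (28.12%) of a list of other ribosome biogenesis genes. The first base of the E-box lay at +15 from the start in MRTO4, +10 in PNO1, +14 in PES1, +16 in NOP14 and -5 in RRP9, and at +29 in LTV1 and BYSL. Within a window of -20 to +40, which was set after the positions were seen, 15 of 33 members (45.45%), 14 of 96 other ribosome biogenesis genes (14.58%) and 418 of 27305 genes (1.53%) held one. The sixteenth member with an E-box, EBNA1BP2, had it at -237. No CACGTG was found in the promoters of BRIX1, GRWD1, NOP16, UTP15, WDR74, WDR75 or TSR1, whose signals are also described further on. The related hexamer CACGCG, searched on both strands, was in 11 of 33 members (33.33%) and in 11.4% of all promoters. TGATGNAA, a site of ATF4 dimers that was searched on both strands, was in 0 of 33 members and in 3.67% of all. The median GC content of the 300 bases was 64.0% in members and 58.3% in all genes, and a letter match is not a measured binding site.

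**Figure D1:**
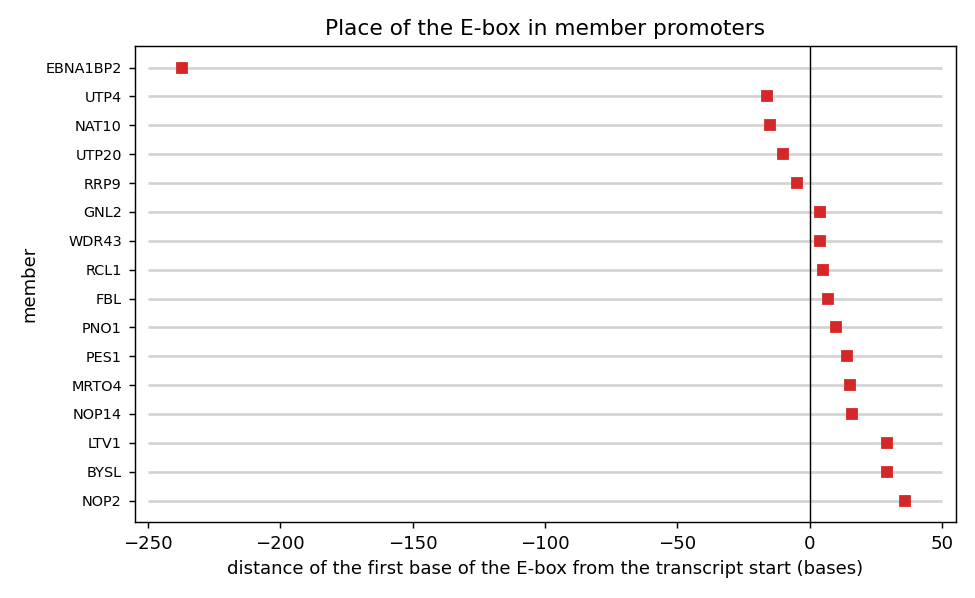
Position of the first base of CACGTG in bases from the annotated start, for each member gene with such a match in its 300-base promoter. 15 of the 16 matches lie between -20 and +40, and that of EBNA1BP2 lies at -237.

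The values are normalized log2 signals per transcript, as deposited by the authors. They ran as high as 19.92, above the 16 that a signal of a 16-bit scanner can reach on the log2 scale, so the scale is in doubt, and the folds given here, 2 to the power of a difference in deposited values, share this doubt. A signal says nothing of the level of one gene relative to another, since each transcript has its own probes, and fewer cells or less RNA per cell cannot be told apart in RNA pooled from a culture. With limma, one model per cell line was fitted to its 9 arrays and to all 135750 transcripts. A transcript counted as differentially expressed (DET) where its fold reached 1.2 in either direction and limma's p before adjustment did not exceed 0.005. Only these cut-offs are those of the methods, where p came from another test with permutations. The DETs given here are therefore not the DETs of the paper. By the test of the methods without its permutation step, fewer members were called at 24 h, as given in the closing sections. Calls by a Benjamini-Hochberg adjusted p under 0.05 are given beside the DETs.

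Some colon epithelial markers set the HT-29 replicates apart. LYZ, which encodes lysozyme, had signals of 16.94 to 17.48 on the replicate 1 arrays of HT-29, 10.12 to 10.50 on replicate 2, 10.78 to 11.77 on replicate 3 and 5.54 to 6.13 on the HCT116 arrays. KRT20, an intestinal keratin, had 12.72 to 14.91 on replicate 1, 8.32 to 9.07 on replicate 2, 8.49 to 9.42 on replicate 3 and 6.98 to 7.81 in HCT116. The junction protein gene CDH1 averaged 13.20 on replicate 1, 11.20 on replicate 2, 11.66 on replicate 3 and 11.20 in HCT116, and VIL1, a protein of the brush border, averaged 8.29, 5.74, 6.22 and 5.59 in that order. Not all markers went this way, since CDX2, an intestinal transcription factor, was lowest on replicate 1 (mean 8.10, with 8.90 on replicate 2, 9.30 on replicate 3 and 9.04 in HCT116) and KRT19, a simple keratin, was about level (14.93, 15.01, 15.30 and 15.06). Signals of the lines stand side by side here as a description only, because the methods state that the lines were normalized separately. EPCAM and KRT8, which define epithelium, had signals of 14.26 to 15.87 and 16.47 to 18.31 over all arrays, and CDX1 had 5.02 to 6.12. For cells other than epithelium, 8 of 9 markers were measured with signals of 4.57 to 8.601, against a median signal of 6.26 over the transcripts of single genes. The labels do not say whether all HT-29 arrays came from one stock of cells. The part of the difference between the HT-29 replicates in any HT-29 value, or in the comparison of the lines, was not tested, and HT-29 results are therefore also given with replicates 2 and 3 only and with replicate 1 only. In HCT116, the replicate 1 array at 24 h was the lowest of its group for 27 of the 34 members. Its median deviation from the mean of the line was -0.92, against -0.21 and -0.17 for replicates 2 and 3 at 24 h.

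The contrast of 24 h with 4 h, which uses no untreated array in its difference, carried the largest number of DETs among the members in both lines. There are no untreated arrays for each time. The length of ER exposure and any difference in time in culture therefore cannot be told apart in this contrast.

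**Figure D2:**
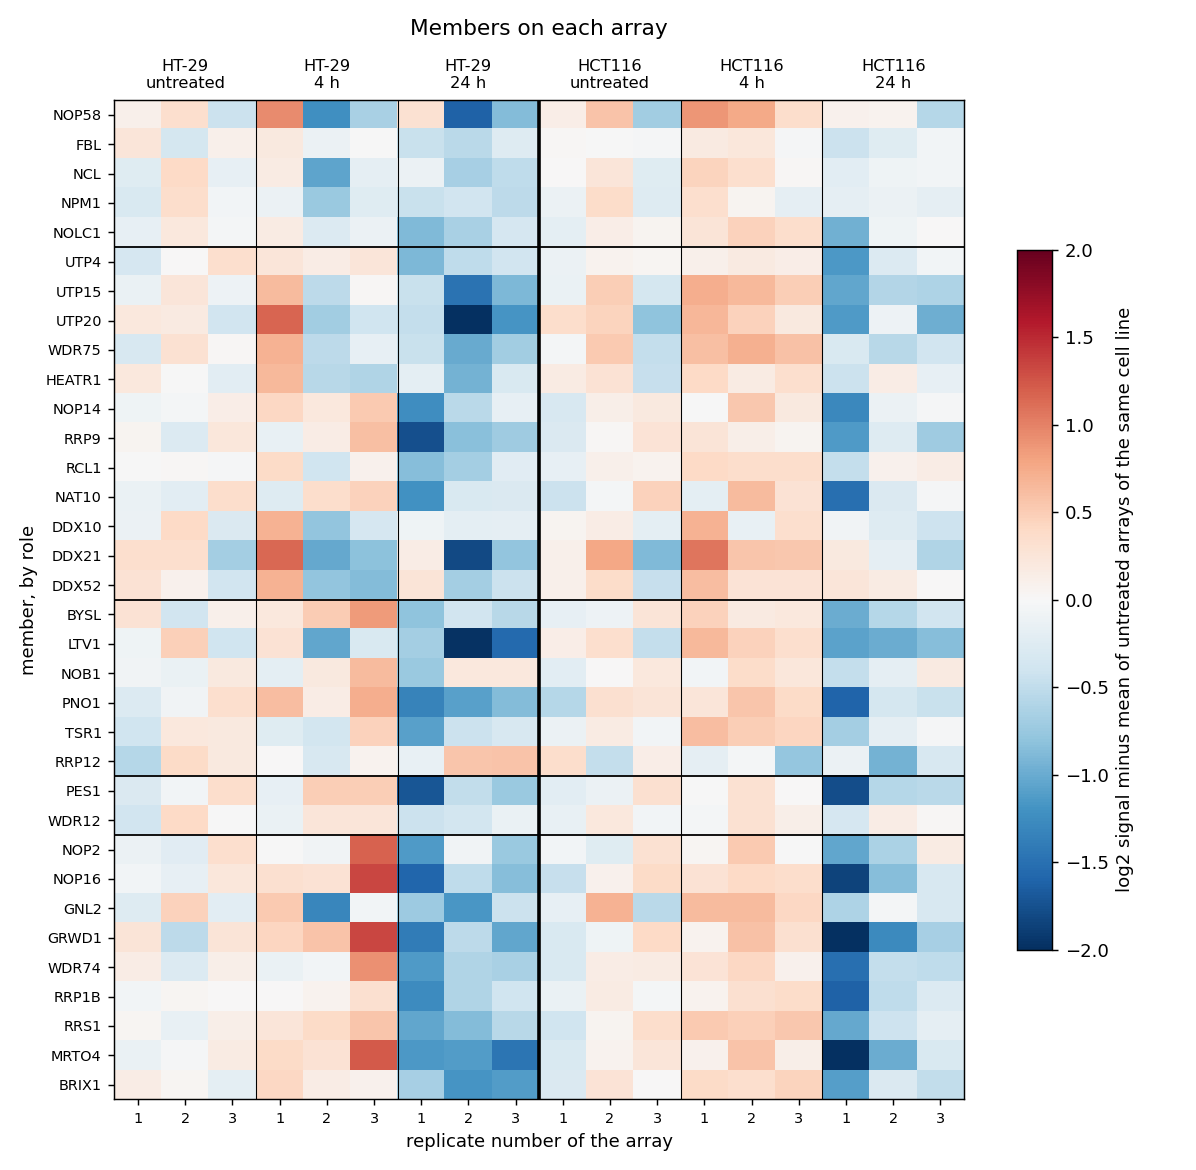
Colours give the log2 signal of each of the 34 measured members minus its mean over the untreated arrays of the same line, one column per array for untreated, 4 h and 24 h in HT-29 and HCT116, with members ordered by role. Most members are below the untreated mean on the 24 h arrays, and the HCT116 24 h replicate 1 array is the lowest of its group for 27 of 34.

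After 24 h of ER in HT-29, 10 of the 34 members were DETs relative to 4 h, all lower, against 0.389% of all transcripts called lower. None passed the adjusted p, which was 0.0702 for MRTO4 and 0.502 for NOP14, the ends of the range, against 31 of all 135750 transcripts (0.0228%). An unadjusted p under 0.05 was reached by 21 members, against 6.12% of all transcripts. The 24 h arrays were all below the 4 h arrays for 16 members, against 5.54% of all transcripts. The median log2 change of the members was -0.80, against -0.02 over all transcripts, and 32 of 34 members had a change below 0, against 53% of all transcripts.

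In HCT116 the same contrast gave 15 DETs of 34, all lower, against 0.785% of all transcripts called lower. LTV1 was the only member to pass limma's adjusted p (0.0449), against 113 of all transcripts (0.0832%). An unadjusted p under 0.05 was reached by 25 members, against 10.7%. The 24 h and 4 h arrays did not overlap for 27 members, all lower at 24 h, against 7.93% of all transcripts. All 34 members had a change below 0, against 50% of all transcripts, with a median of -0.85, against a median of 0.00 over all transcripts. Signal strength bears on such shares, so the 9560 genes at least as bright as the dimmest member were counted too. Of these, 2.08% were DETs called lower in HT-29 and 3.27% in HCT116, and 8.66% and 15% did not overlap and were lower. A change below 0 was found in 44.7% of them in HT-29 and 50.5% in HCT116. An unadjusted p under 0.05 (limma) was reached by 15.9% of them in HT-29 and 24.9% in HCT116. BRIX1, BYSL, GRWD1, MRTO4, NOP16, PES1, PNO1, RRP9 and RRS1 were DETs in both lines, which is 90% of the 10 in HT-29 and 60% of the 15 in HCT116. The share of all transcripts called in both lines was not counted. Without HCT116 24 h replicate 1, only GRWD1 of these genes was still a DET in HCT116.

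**Figure D3:**
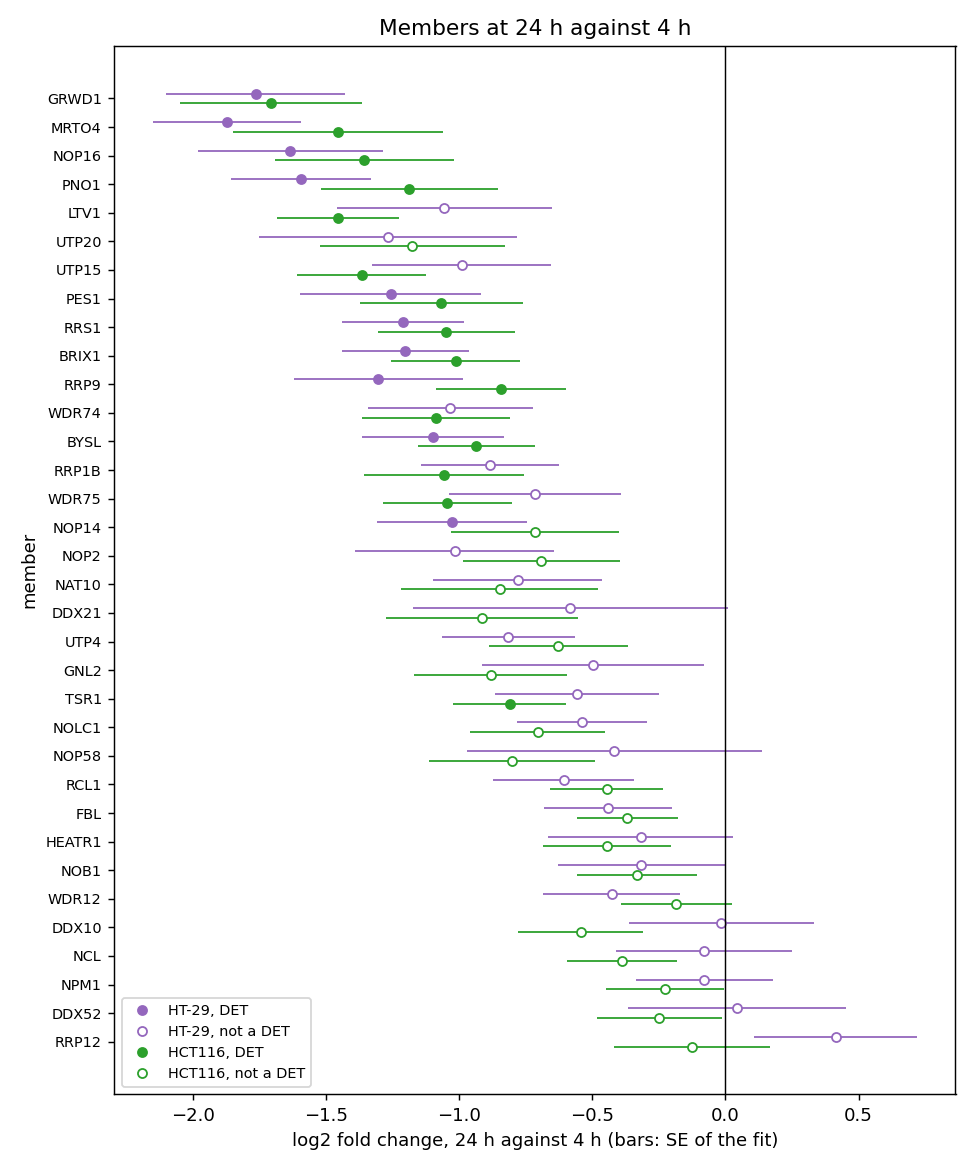
Log2 change of each measured member at 24 h relative to 4 h, HT-29 and HCT116, with bars for the SE of limma's fit (9 arrays per line). Open points are not DETs, and the filled points, 10 DETs in HT-29 and 15 in HCT116, all lie below 0.

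The large subunit group held the largest share of DETs at 24 h relative to 4 h. Of its 9 measured factors, 5 in HT-29 and 7 in HCT116 were DETs in this contrast. The median over all 9 was -1.201 for HT-29 and -1.06 for HCT116 on the log2 scale. Without the HCT116 24 h replicate 1 array, GRWD1 was the only DET of the group in that line. At 24 h relative to untreated cells, 3 of the 9 were DETs in HT-29 and 1 in HCT116. Of the 6 measured factors of 40S maturation, 2 and 1 were. MRTO4 is a nucleolar relative of the ribosomal stalk protein that holds its place on early 60S particles. Its signals in HT-29 were 11.20, 11.31 and 11.49 in untreated cells, 11.72, 11.63 and 12.56 at 4 h and 10.19, 10.22 and 9.87 at 24 h. In HCT116 they were 11.35, 11.73 and 11.90 in untreated cells, 11.74, 12.23 and 11.78 at 4 h and 9.37, 10.66 and 11.36 at 24 h. Every 24 h array was below every 4 h array in both lines, with a wide spread at 24 h in HCT116, where replicate 1 was the lowest. MRTO4 fell by 1.87 on the log2 scale in HT-29 (SE 0.28, 3.66-fold) and by 1.45 in HCT116 (SE 0.39, 2.74-fold), where the change was -0.91 without 24 h replicate 1.

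GRWD1, a histone-binding protein whose yeast relative escorts the ribosomal protein Rpl3, was the other large change. In HT-29 it had 12.32, 11.53 and 12.32 in untreated cells, 12.48, 12.62 and 13.39 at 4 h and 10.66, 11.53 and 11.02 at 24 h. The HCT116 signals were 12.39, 12.59 and 13.08 in untreated cells, 12.75, 13.28 and 13.01 at 4 h and 10.47, 11.42 and 12.03 at 24 h. At 4 h all HT-29 arrays were above the untreated ones and at 24 h all HCT116 arrays were below both earlier groups. The change at 24 h relative to 4 h was -1.76 (SE 0.34) in HT-29 and -1.71 (SE 0.34) in HCT116. GRWD1 was also a DET in HCT116 at 24 h relative to untreated cells, at -1.38 (SE 0.34).

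NOP16, a nucleolar factor of early 60S particles, had HT-29 signals of 10.68, 10.58 and 10.96 in untreated cells, 11.06, 11.03 and 12.08 at 4 h and 9.15, 10.23 and 9.88 at 24 h. Its HCT116 signals were 10.63, 11.17 and 11.48 in untreated cells, 11.39, 11.50 and 11.44 at 4 h and 9.25, 10.24 and 10.78 at 24 h. The 24 h arrays of both lines were below all their 4 h arrays, and replicate 1 was the lowest of them in each line. It fell by 1.63 (SE 0.35) in HT-29 and by 1.36 (SE 0.34) in HCT116.

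RRS1 works in yeast with a partner to bring the 5S RNA particle into the large subunit. HT-29 cells had RRS1 signals of 10.62, 10.44 and 10.70 untreated, 10.83, 10.96 and 11.14 at 4 h and 9.55, 9.72 and 10.03 at 24 h. HCT116 cells had 10.46, 10.90 and 11.21 untreated, 11.38, 11.33 and 11.40 at 4 h and 9.83, 10.45 and 10.68 at 24 h. In both lines the 4 h arrays were all above the untreated arrays and the 24 h arrays all below the 4 h arrays. The log2 change at 24 h relative to 4 h was -1.21 (SE 0.23) in HT-29 and -1.05 (SE 0.26) in HCT116.

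BRIX1 carries a domain shared by several large subunit assembly factors. Its HT-29 signals were 14.56, 14.44 and 14.21 untreated, 14.81, 14.55 and 14.48 at 4 h and 13.73, 13.22 and 13.29 at 24 h. On the HCT116 arrays they were 14.17, 14.74 and 14.48 untreated, 14.84, 14.80 and 14.91 at 4 h and 13.36, 14.18 and 13.97 at 24 h. The 24 h arrays did not overlap the 4 h arrays in either line, nor the untreated arrays in HT-29. Relative to 4 h the log2 change was -1.201 (SE 0.24) in HT-29 and -1.01 (SE 0.24) in HCT116.

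WDR74 and RRP1B, factors of early 60S particles, were DETs in HCT116 and missed the p threshold in HT-29. WDR74 had HCT116 signals of 10.69, 11.14 and 11.16 untreated, 11.27, 11.42 and 11.08 at 4 h and 9.50, 10.52 and 10.49 at 24 h. Its HT-29 signals were 11.12, 10.70 and 11.10 untreated, 10.84, 10.91 and 11.89 at 4 h and 9.84, 10.38 and 10.33 at 24 h. The 24 h arrays were below the 4 h arrays in both lines, and the log2 change of WDR74 was -1.09 (SE 0.28) in HCT116 and -1.03 (SE 0.31) in HT-29. The values of the lines were close and lay on both sides of the threshold. In RRP1B the change at 24 h relative to 4 h was -1.06 (SE 0.30) in HCT116, or -0.65 without 24 h replicate 1, and -0.88 (SE 0.26) in HT-29. Its HCT116 signals were 12.64, 12.93 and 12.73 untreated, 12.84, 13.09 and 13.13 at 4 h and 11.14, 12.26 and 12.48 at 24 h. Its HT-29 signals were 12.35, 12.44 and 12.41 untreated, 12.41, 12.47 and 12.71 at 4 h and 11.14, 11.80 and 11.9998 at 24 h. Replicate 1 was the lowest of the 24 h arrays for both genes in both lines.

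**Figure D4:**
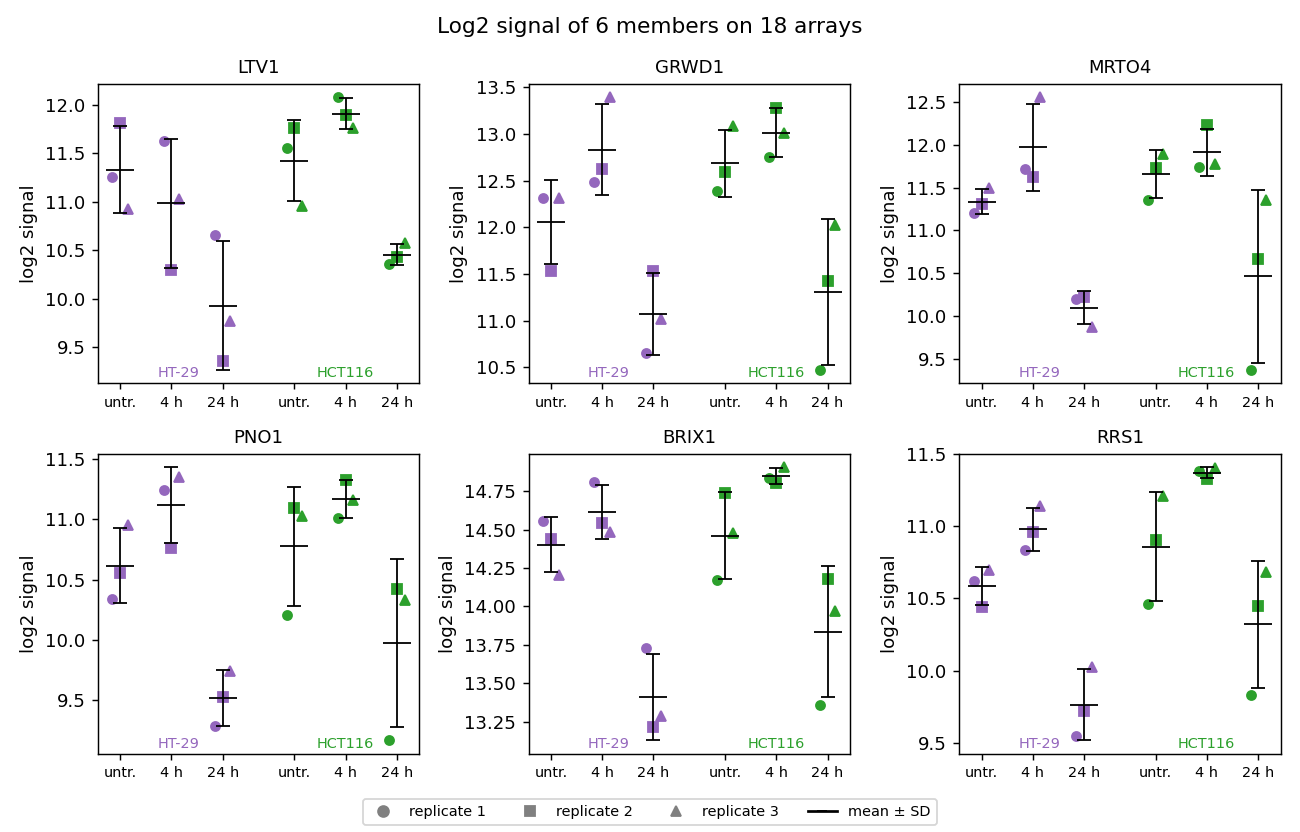
Log2 signal of LTV1, GRWD1, MRTO4, PNO1, BRIX1 and RRS1 on each of the 18 arrays, by line and by group in the order untreated, 4 h and 24 h, with symbols for the replicates and bars for the group mean ± SD (n = 3). For all 6 genes the HCT116 24 h arrays lie below the HCT116 4 h arrays.

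PES1, WDR12 and BOP1 form the PeBoW complex, which is needed for the mature RNAs of the large subunit. PES1 had HT-29 signals of 14.14, 14.38 and 14.78 untreated, 14.27, 14.92 and 14.93 at 4 h and 12.73, 13.94 and 13.69 at 24 h. In HCT116 they were 14.55, 14.64 and 15.08 untreated, 14.75, 15.06 and 14.77 at 4 h and 12.98, 14.19 and 14.21 at 24 h. In each line all 24 h arrays were below all arrays of both other groups, with replicate 1 more than 0.9 below the next. The changes relative to 4 h were -1.26 (SE 0.34) in HT-29 and -1.07 (SE 0.31) in HCT116, or -0.66 in HCT116 without 24 h replicate 1. WDR12 was not a DET in any comparison.

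Among the 6 measured factors of 40S maturation, 2 were DETs at 24 h relative to 4 h in HT-29 and 4 in HCT116. LTV1, which rides on the precursor of the small subunit during its export and leaves before the last steps, had HT-29 signals of 11.25, 11.81 and 10.93 untreated, 11.62, 10.30 and 11.03 at 4 h and 10.65, 9.36 and 9.77 at 24 h. In HCT116 they were 11.56, 11.76 and 10.95 untreated, 12.08, 11.89 and 11.76 at 4 h and 10.36, 10.43 and 10.57 at 24 h. The HCT116 arrays were tight at both times and did not overlap, while in HT-29 the 24 h and 4 h arrays overlapped. LTV1 was still lower on each HT-29 24 h array than on the 4 h array of the same replicate number. LTV1 fell by 1.46 in HCT116 (SE 0.23, 2.74-fold, limma adjusted p = 0.0449), and its change of -1.06 in HT-29 (SE 0.40) was not a DET. Relative to untreated cells it was a DET at 24 h in both lines, at -1.40 (SE 0.40) in HT-29 and -0.97 (SE 0.23) in HCT116. Its adjusted call in HCT116 was lost without any one of the 4 h or 24 h arrays or of untreated replicates 1 and 2 (limma adjusted p of 0.0566 to 0.196). It held without untreated replicate 3 (0.0304).

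PNO1 is the partner of the nuclease NOB1, which cuts the last piece off the small subunit RNA. PNO1 had HT-29 signals of 10.34, 10.55 and 10.95 untreated, 11.24, 10.76 and 11.35 at 4 h and 9.29, 9.53 and 9.74 at 24 h. The HCT116 cells had 10.21, 11.09 and 11.03 untreated, 11.01, 11.33 and 11.16 at 4 h and 9.17, 10.43 and 10.33 at 24 h. Its 24 h arrays were below all 4 h arrays in both lines, and it fell by 1.59 (SE 0.26, 3.02-fold) in HT-29 and by 1.19 (SE 0.33, 2.28-fold) in HCT116, where the change was -0.79 without 24 h replicate 1. NOB1 itself had a change of -0.32 (SE 0.31) in HT-29 and -0.33 (SE 0.23) in HCT116 and was a DET in neither.

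BYSL, known as bystin, binds the precursor of the small subunit in the nucleus. Its HT-29 signals were 12.85, 12.18 and 12.66 untreated, 12.77, 13.07 and 13.41 at 4 h and 11.76, 12.19 and 12.01 at 24 h. The HCT116 signals were 12.63, 12.70 and 13.06 untreated, 13.26, 12.98 and 13.00 at 4 h and 11.80, 12.22 and 12.42 at 24 h. All 24 h arrays were below the 4 h arrays of their line, with log2 changes of -1.10 (SE 0.27) in HT-29 and -0.93 (SE 0.22) in HCT116.

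TSR1, a late factor of the small subunit related to GTPases, had 13.15, 13.43 and 13.22 in untreated HCT116 cells, 13.89, 13.76 and 13.71 at 4 h and 12.59, 13.09 and 13.25 at 24 h. In HT-29 it had 12.80, 13.40 and 13.38 untreated, 12.96, 12.82 and 13.65 at 4 h and 12.11, 12.77 and 12.88 at 24 h. Its HCT116 4 h arrays were above every other array of the line, and the log2 change at 24 h relative to 4 h was -0.81 (SE 0.21) in HCT116 and -0.56 (SE 0.31) in HT-29, where it was not a DET. RRP12, a factor in the maturation and export of ribosomal precursors, was the only member of the 34 with a change above 0 at 24 h relative to untreated HT-29 cells (0.33, SE 0.31), and it was the dimmest member, with a mean signal of 8.16. Other RRP12 transcripts had changes of 0.14, -0.47 and 0.31 at 24 h relative to untreated HT-29 cells. The one at -0.47 was a DET at -0.94 in HT-29 at 24 h relative to 4 h.

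In the small subunit processome, 2 of 12 measured factors were DETs at 24 h relative to 4 h in HT-29 and 3 in HCT116. RRP9, a protein bound to the U3 small nucleolar RNA, was a DET in both lines. It had HT-29 signals of 10.55, 10.22 and 10.74 untreated, 10.36, 10.65 and 11.11 at 4 h and 8.75, 9.67 and 9.79 at 24 h. In HCT116 it had 10.44, 10.75 and 11.01 untreated, 10.99, 10.85 and 10.78 at 4 h and 9.60, 10.47 and 10.02 at 24 h. The 24 h arrays were the lowest in HT-29, and in HCT116 they were below the 4 h arrays but overlapped the untreated ones. The log2 change relative to 4 h was -1.30 (SE 0.32) in HT-29 and -0.84 (SE 0.24) in HCT116.

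NOP14, a core protein of the processome, had HT-29 signals of 12.23, 12.27 and 12.45 untreated, 12.73, 12.53 and 12.83 at 4 h and 11.07, 11.79 and 12.16 at 24 h. All 24 h arrays were below all untreated arrays, which were below all 4 h arrays. In HCT116 its signals were 12.15, 12.59 and 12.67 untreated, 12.47, 13.02 and 12.67 at 4 h and 11.19, 12.36 and 12.46 at 24 h. The low 24 h value was again that of replicate 1. NOP14 had a change at 24 h relative to 4 h of -1.03 (SE 0.28) in HT-29 and, not a DET, of -0.72 (SE 0.32) in HCT116.

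UTP15 and WDR75 sit in the subcomplex that binds the precursor RNA first. UTP15 had HCT116 signals of 11.47, 12.09 and 11.25 untreated, 12.34, 12.25 and 12.09 at 4 h and 10.57, 11.02 and 10.99 at 24 h, and fell by 1.37 relative to 4 h (SE 0.24, 2.58-fold). In HCT116 the 24 h arrays of both genes were below all 4 h arrays. WDR75 had 14.27, 14.84 and 13.83 untreated, 14.92, 15.03 and 14.90 at 4 h and 14.01, 13.77 and 13.94 at 24 h in HCT116, and fell by 1.04 (SE 0.24). In HT-29 the changes were -0.99 (SE 0.34) for UTP15 and -0.72 (SE 0.32) for WDR75, and neither was a DET. UTP15 had HT-29 signals of 11.49, 11.87 and 11.53 untreated, 12.26, 11.11 and 11.66 at 4 h and 11.18, 10.16 and 10.72 at 24 h. Those of WDR75 were 13.99, 14.62 and 14.34 untreated, 15.01, 13.80 and 14.15 at 4 h and 13.88, 13.31 and 13.63 at 24 h. For both genes the HT-29 replicate 1 array was the highest of the 4 h group, and the 24 h and 4 h arrays overlapped. Each HT-29 24 h array was still below the 4 h array of the same replicate number for both genes.

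The box C/D and scaffold proteins had the smallest median change at 24 h relative to 4 h of the role groups, -0.42 in HT-29 and -0.39 in HCT116. None of the 5 measured (NOP58, FBL, NCL, NPM1 and NOLC1) was a DET in any of the comparisons. Nucleolin (NCL) and nucleophosmin (NPM1), abundant nucleolar proteins, had changes of -0.08 (SE 0.33) and -0.08 (SE 0.26) at 24 h relative to 4 h in HT-29, and of -0.39 (SE 0.21) and -0.23 (SE 0.22) in HCT116. Fibrillarin (FBL), the methyltransferase of the box C/D particles, had a change of -0.44 (SE 0.24) in HT-29 and -0.37 (SE 0.19) in HCT116. Its transcript used here has no place in the genome, and the placed FBL transcript had changes of -0.56 and -0.54. NOP58, which holds such particles together, had 13.31, 11.39 and 12.13 at 24 h and 13.95, 11.78 and 12.36 at 4 h in HT-29. The spread between its replicates was larger than its change, and each 24 h array was below the 4 h array of the same replicate number.

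Of the other members, UTP20, a large protein of the processome, had the largest change that was not a DET. Its HT-29 signals were 11.77, 11.74 and 11.17 untreated, 12.72, 10.86 and 11.17 at 4 h and 11.08, 9.49 and 10.38 at 24 h. Its HCT116 signals were 11.90, 11.997 and 10.75 untreated, 12.21, 12.01 and 11.75 at 4 h and 10.42, 11.45 and 10.58 at 24 h. The replicates of UTP20 were far apart in both lines, but each 24 h array was below the 4 h array of the same line and replicate number. Its change at 24 h relative to 4 h was -1.27 (SE 0.49) in HT-29 and -1.18 (SE 0.35) in HCT116. NOP2, a methyltransferase of the large subunit RNA, had changes of -1.02 (SE 0.37) in HT-29 and -0.69 (SE 0.30) in HCT116. GNL2, a nucleolar GTPase of the large subunit, had changes of -0.50 (SE 0.42) in HT-29 and -0.88 (SE 0.29) in HCT116. NAT10, which acetylates the small subunit RNA, had -0.78 (SE 0.32) in HT-29 and -0.85 (SE 0.37) in HCT116, and HEATR1, UTP4, RCL1, DDX10 and DDX52 were not DETs in any comparison either. The helicase DDX52 had a change of 0.04 (SE 0.41) in HT-29, which with RRP12 (0.41, SE 0.31) made up the 2 members above 0.

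Relative to untreated cells, fewer members passed at 24 h. In HT-29, 6 of 34 were DETs, all lower, against 0.144% of all transcripts called lower, namely MRTO4 (-1.24, SE 0.28), PNO1 (-1.09, SE 0.26), BRIX1 (-0.99, SE 0.24), RRS1 (-0.82, SE 0.23), LTV1 and RRP9 (-1.10, SE 0.32). None passed the adjusted p, against 3 of all transcripts (0.00221%). The 24 h arrays were all below the untreated arrays for 21 members, against 4.55% of all transcripts and 9.84% of the genes at least as bright, of which 0.858% were DETs called lower. The median change was -0.68. Changes were below 0 for 33 of 34 members, against 47.6% of all transcripts and 54.9% of the genes at least as bright. Limma's unadjusted p was under 0.05 for 18 members, against 3.69% of all transcripts and 8.97% of the genes at least as bright. In HCT116, LTV1 and GRWD1 were DETs, 2 of 34, against 0.413% of all transcripts and 0.575% of the genes at least as bright called lower. The adjusted p was passed by 0 members, against 11 of all transcripts (0.0081%). There 8 members did not overlap, all lower, against 6.83% of all transcripts and 6.2% of the genes at least as bright. The median was -0.48, and 33 of 34 were below 0, against 52.4% of all transcripts and 41.9% of the genes at least as bright. Limma's unadjusted p was under 0.05 for 12 members, against 8.53% of all transcripts and 18.1% of the genes at least as bright.

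At 4 h there was no DET among the members in either line, against 0.147% of all transcripts called higher and 0.0766% called lower in HT-29, and 0.116% and 0.175% in HCT116. No transcript of any kind passed the adjusted p at 4 h (0%). In HT-29, 12 of 34 changes were below 0, against 45% of all transcripts and 61.8% of the genes at least as bright as the dimmest member, and the median was 0.08, against -0.09 over those bright genes. An unadjusted p under 0.05 was found for 2 members, against 3.51% of all transcripts and 2.53% of the bright genes. They were GRWD1 (0.78, SE 0.34) and MRTO4 (0.64, SE 0.28). In HCT116, 1 of 34 was below 0, against 52.6% of all transcripts and 36% of the bright genes, and the median was 0.30, against 0.08 over the bright genes. There 3 had an unadjusted p under 0.05, against 3.85% of all transcripts and 3.51% of the bright genes. They were WDR75 (0.64), UTP15 (0.62) and TSR1 (0.52). DDX21, a nucleolar helicase, had the highest change, 0.72 (SE 0.36), in HCT116. Arrays did not overlap and were higher at 4 h for 5 members in HT-29 and 7 in HCT116, against 4.95% and 4.49% of all transcripts and 1.87% and 8.37% of the bright genes.

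**Figure D5:**
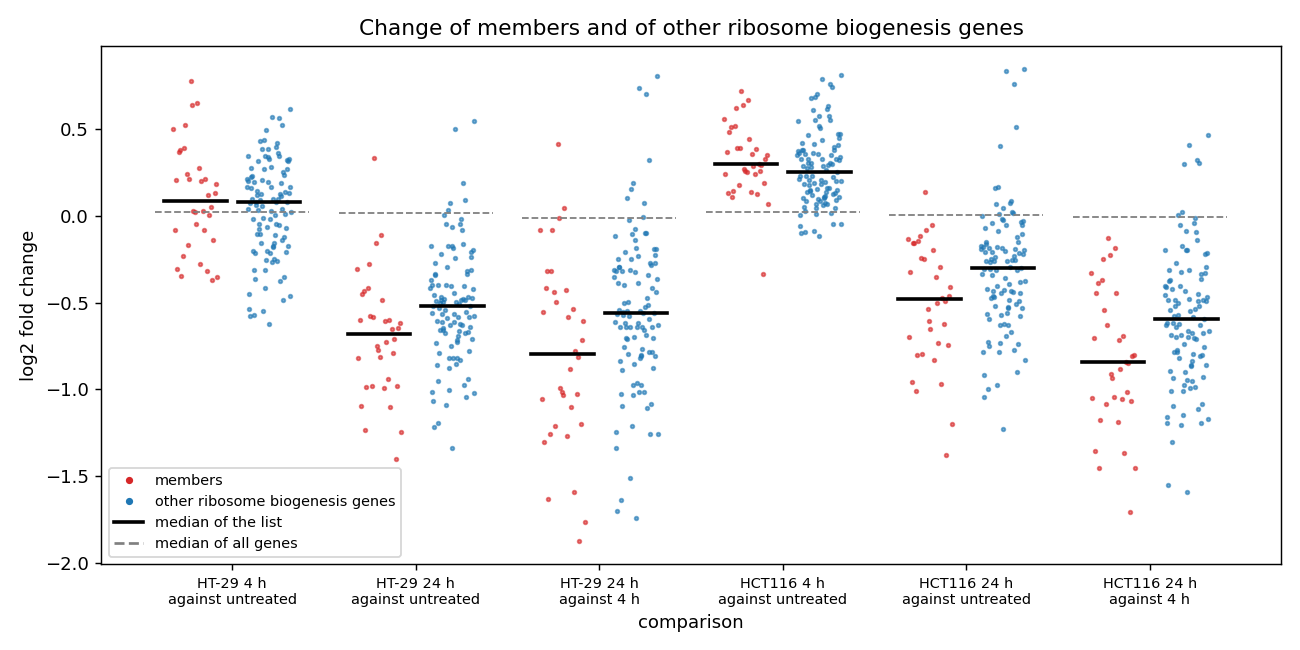
Log2 changes of the 34 measured members (red) and the 105 measured other ribosome biogenesis genes (blue) in each comparison within a line, one point per gene, with the list's median as a bar and the median of all genes as a dashed line. The members lie mostly above 0 at 4 h in HCT116 and almost all below 0 at 24 h in both lines.

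No member passed a threshold for a difference between HT-29 and HCT116 in the change at 24 h from untreated cells. In the interaction of a fit of all 18 arrays, 0 of 34 members were DETs, against 0.125% of all transcripts called lower and 0.197% called higher. None had an unadjusted p under 0.05, against 3.6% of all transcripts and 0.628% of the genes at least as bright as the dimmest member. None passed the adjusted p, as in all transcripts (0%). The median difference, HT-29 minus HCT116, was -0.26, with a median SE of 0.43, against -0.13 over the genes at least as bright as the dimmest member. Of the members 25 of 34 were below 0, against 47% of all transcripts and 65.3% of these bright genes. RRP12 had the highest difference, 0.79 (SE 0.44). A p that misses the threshold does not show that the lines respond alike, and the levels of the members were not compared between the lines.

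The counts depended on single arrays. The share of all transcripts called was not counted for these fits with fewer arrays. At 4 h in HCT116, leaving out untreated replicate 2 gave 3 DETs, all higher, where there had been 0. In HT-29, the 6 DETs at 24 h relative to untreated cells fell to 2 without untreated replicate 1 or without 24 h replicate 2, and to 3 without untreated replicate 2, untreated replicate 3 or 24 h replicate 1. The 10 DETs relative to 4 h fell to 6 without the 4 h replicate 3 array. With HT-29 replicates 2 and 3 only there were 5 and 8 DETs, with medians of -0.61 and -0.67, and with replicate 1 only the medians were -0.69 and -1.06. At 4 h the median was 0.04 with HT-29 replicates 2 and 3 only and 0.38 with replicate 1 only, and the difference between the lines at 24 h had 0 DETs and a median of -0.19 with replicates 2 and 3 only. In HCT116, the 2 DETs relative to untreated cells became 1 without untreated replicate 1, untreated replicate 2 or 24 h replicate 1, and 6 without 24 h replicate 3. The 15 DETs relative to 4 h fell to 4 without the 24 h replicate 1 array, the low one, which were LTV1, UTP15, WDR75 and GRWD1, and to 6, 7 and 7 without the 4 h replicates 1, 2 and 3. Without that low array the changes of MRTO4, PNO1, PES1 and RRP1B were smaller by more than 1.5 times, and none of them was then a DET.

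A wider list held 111 other ribosome biogenesis genes, of which 105 were measured. At 24 h relative to 4 h, 15 of 105 were DETs in HT-29 and 20 in HCT116, all lower, with medians of -0.56 and -0.60. Of all transcripts, 0.389% in HT-29 and 0.785% in HCT116 were called lower. Of the genes at least as bright as the dimmest member, 2.08% and 3.27% were. In HT-29 the DETs of the wider list were led by NOL6, FTSJ3, IMP4, RRP7A, PWP2 and RRP1, and in HCT116 by SBDS, WDR3, RPF2, NIFK, UTP14A and UTP3. SBDS, which frees the large subunit for its first use, fell by 1.55 in HCT116 (SE 0.22) and passed the adjusted p (limma adjusted p = 0.0283). NOL6, a processome protein, fell by 1.74 in HT-29 (SE 0.26). Relative to untreated cells, 8 were DETs at 24 h in HT-29, all lower, with FTSJ3 (-1.19), NOL6 (-1.22) and IMP4 (-1.34) first. There 0.144% of all transcripts and 0.858% of the genes at least as bright as the dimmest member were called lower. In HCT116 2 were lower, SBDS, with means of 10.10 at 24 h and 11.10 in untreated cells, and DDX56 (-1.04). In that contrast 0.413% of all transcripts and 0.575% of the genes at least as bright as the dimmest member were called lower. EFL1, the GTPase that acts with SBDS, was higher (0.84, SE 0.20), against 0.824% of all transcripts and 3.66% of these bright genes called higher. At 4 h 0 were DETs in either line. Of all transcripts, 0.147% were then called higher and 0.0766% lower in HT-29, and 0.116% and 0.175% in HCT116.

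Members with and without the E-box could be set side by side for 28 measured genes, 14 of each kind. At 24 h relative to 4 h the median change was -1.04 with it and -0.57 without it in HT-29, and -0.86 with it and -0.86 without it in HCT116. DETs numbered 6 with and 3 without in HT-29, and 6 with and 7 without in HCT116. At 24 h relative to untreated cells the medians were -0.71 with and -0.66 without in HT-29, and -0.63 with and -0.27 without in HCT116, and DETs numbered 4 with and 1 without in HT-29 and 1 of each kind in HCT116. These are descriptions of 28 genes that share the same arrays, and no difference between them was tested.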

How the data were processed

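RNA of 18 samples, 3 per group, was measured on Affymetrix whole-transcriptome arrays. The deposited table holds log2 signals that the authors had normalized. According to the methods, RMA was run for the lines separately with summaries by the mean, and a second package of the array's maker was also used. Which made the table is not given in the sources used here, nor is the genome build of the array. Of 138745 features, 2995 controls were left out. Array medians lay between 5.437 and 5.614, and log2 values of arrays correlated at 0.9455 to 0.9844 within a group. On arrays the number of replicates limits the precision. The methods state 3 independent experiments.

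Contrasts were estimated in R 4.3.3 by limma 3.58.1, with lmFit and eBayes, on all 9 arrays of a line or, for the interaction, all 18. The members, lists and thresholds were chosen with earlier results of these data known. Values on every array are given for DETs among the members, up to 12 per comparison by smallest p (RRP1B, beyond that number, was added after its values were seen), and up to 6 DETs per comparison are named from the other list. Alternatives were a Student t-test without the permutation step of the methods, other fits and normalizations, filters, a fold of 1.5 and leaving out each array. The fits were tested on simulated data. Promoters were read with Python 3.11.15.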

Additional observations from a re-analysis of the deposited data

Results flagged for a closer look

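LTV1 in HCT116 cells was set apart because its change from untreated cells differed between the times, with an adjusted p of 0.0449 for 24 h relative to 4 h (limma). The log2 difference between 24 h and 4 h was -1.46. It was lower on 3 of 3 arrays at 24 h than on every 4 h array. Relative to untreated cells, its log2 change was -0.97 (SE 0.23) at 24 h and 0.48 (SE 0.23) at 4 h, both set against the same untreated arrays.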

How the results depend on the processing

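Of 296 values of counts, medians and shares recomputed under alternatives, 266 stayed within 1.5 times for counts, or within 1 SD between arrays for medians, and 30 moved. Counts that stayed at 0 are among those that stayed. The share of all transcripts called was counted for the main fits only, so counts of members under alternatives stand without it. Counts could not be scored as turned in direction, and shares were always scored as moved. A median that crossed 0 within 1 SD was scored as stayed. That none was scored as turned therefore says little about direction. Of 709 values for single named genes, 175 lost the call and none turned direction.

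By a Student t-test without the permutation step of the methods, HT-29 had 1 DET among the members at 24 h against untreated cells and 4 against 4 h. By the same t-test HCT116 had 0 and 3. By adjusted p HT-29 had none in either contrast (0), while HCT116 had 0 and 1. With a trend and robust eBayes, HT-29 had 3 at 24 h against untreated cells. With replicate 1 of HT-29 only, the median change was 0.38 at 4 h and -1.06 at 24 h against 4 h. The cause was not tested.

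Leaving out single arrays, the DETs at 24 h against untreated cells ranged over 2 to 6 in HT-29 (median change -0.76 to -0.60) and 1 to 6 in HCT116 (-0.65 to -0.32). At 24 h against 4 h they ranged over 6 to 10 in HT-29 (-0.98 to -0.70) and 4 to 16 in HCT116 (-0.95 to -0.64). At 4 h they were 0 in HT-29 (0.04 to 0.22) and 0 to 3 in HCT116 (0.19 to 0.38), with 3 higher without untreated replicate 2. For the interaction they were 0 (-0.42 to -0.11). The share of promoters with a motif was 33.33% for CACGCG and 0% for TGATGNAA, which was added after seeing the data.

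The labels do not say that a replicate number marks a shared experiment, and the arrays did not meet the criterion used for pairing, every same-numbered pair over 0.1. Same-numbered arrays correlated at -0.15 to 0.50 in HT-29 and -0.07 to 0.24 in HCT116, over 0.1 for 5 of 9 pairs in each, although LYZ and KRT20 signals set replicate 1 apart in all 3 HT-29 groups. Differently numbered arrays correlated at -0.41 to 0.26 in HT-29 and -0.35 to 0.20 in HCT116, over 0.1 for 6 and 2 of 18 pairs. Missing the criterion does not show that the arrays are unpaired. With the replicate number as a block, there were 8 members called in HT-29 at 24 h against untreated cells and 13 against 4 h, and 5 and 18 in HCT116. The block changed no count at 4 h or in the interaction. With the block, the share of all transcripts called was not counted, so the counts of members stand without it.

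The adjusted call of LTV1 was lost by the t-test, in the fit of only the arrays compared, in 1 fit of all 18 arrays, and after median centring (adjusted p up to 0.355).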
